A study of Mus musculus with 3 samples.

Results

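The 8 genes described here belong to routes by which photoreceptors die, and were followed in single sorted cells labelled as cones: Parp1, Casp6, Casp8, Casp9, Capn1, Capn2, Bax and Aifm1. All 8 had a row in the deposited table of 31053 genes. Counts were read in the 183 wells, of 208 in the table, that held at least 500 counted genes and no more than 30% mitochondrially encoded counts. Of the 183 wells, 70 were Cnga3-/-, 61 were Pde6ccpfl1 and 52 were wildtype.

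The cells came from papain-dissociated mouse retina and were sorted for GFP into a 96-well plate for each line after staining with a viability dye. The Cnga3-/- line lacks the alpha subunit of the cone cyclic nucleotide-gated channel. The Pde6ccpfl1 line has a mutant Pde6c, the gene for the catalytic part of the phosphodiesterase of cones. The wildtype line carries the Chrnb4-GFP reporter, which labels cones, and the library names of the mutants also carry GFP. All libraries were labelled postnatal day 12, while the column names carry the tags P08 for Cnga3-/-, P10 for Pde6ccpfl1 and P11 for wildtype, which are not explained in the sources used here. Should these tags give ages, age and genotype cannot be told apart. There was 1 library per genotype, the number of animals behind each is not given in the sources used here, and plate and genotype cannot be told apart. No test between genotypes was therefore possible, and all intervals are 95%. Those of CPM and of ratios cover counting error only. Intervals of shares of wells treat the wells of 1 library as independent, and do not speak for a genotype.

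Kept wells summed to 335499 counts in Cnga3-/-, 295011 in Pde6ccpfl1 and 273080 in wildtype, with a median per well of 4056.5, 3796 and 4895 in the same order. The cone label was checked on 12 cone markers. They summed to 775 CPM (counts relative to all counts of a library) in Cnga3-/-, 749 CPM in Pde6ccpfl1 and 198 CPM in wildtype, and 11, 10 and 7 of the 12 had a count. In wildtype Opn1sw, Gnat2, Gngt2, Pde6c and Cngb3 were at 0 counts. Per kilobase of annotated exon, the wildtype cone markers stood at 4.58 CPM (3.44 to 5.98), against 4.47 CPM for 1092 protein-coding olfactory receptor genes, which a retina is not known for. The wildtype wells are therefore called by their label, which these markers do not bear out.

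These genes cover 3 linked ways of dying. PARP1 binds broken DNA and builds poly(ADP-ribose) chains, and its overactivity is known to release the mitochondrial protein AIF, encoded by Aifm1, which moves to the nucleus. In apoptosis, caspase 8 starts the cascade below death receptors, BAX opens the outer mitochondrial membrane, caspase 9 is then activated by released cytochrome c, and executioner caspases such as caspase 6 cut the cell's proteins. Calpains, whose classical catalytic subunits are encoded by Capn1 and Capn2, are proteases switched on by calcium. Activity of PARP and calpain is known from dying photoreceptors of several mouse models with raised cGMP.

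Parp1 and Casp6 were the members with enough counts to describe in each library, and their promoters are shown because these genes alone among the 8 carry the comparisons below. The sequences are the 250 bases before the RefSeq start in GRCm38.p6, plus strand, at chr1:180568641-180568890 for Parp1 and chr3:129901165-129901414 for Casp6. Capitals mark the GC box GGGCGG on either strand.
Parp1: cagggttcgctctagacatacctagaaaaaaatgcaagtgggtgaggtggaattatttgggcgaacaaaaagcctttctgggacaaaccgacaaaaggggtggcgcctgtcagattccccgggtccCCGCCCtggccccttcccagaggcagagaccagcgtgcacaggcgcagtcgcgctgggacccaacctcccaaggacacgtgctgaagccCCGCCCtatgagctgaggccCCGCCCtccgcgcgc
Casp6: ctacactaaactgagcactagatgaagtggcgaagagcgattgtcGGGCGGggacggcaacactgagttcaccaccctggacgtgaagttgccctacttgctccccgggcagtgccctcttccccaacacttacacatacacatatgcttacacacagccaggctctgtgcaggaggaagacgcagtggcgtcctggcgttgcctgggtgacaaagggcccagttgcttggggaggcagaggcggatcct
The Parp1 window held 3 GC boxes and the Casp6 window 1, and 32.7% of the 32851 RefSeq windows of this length held at least 1. Neither window held TATAAA or TAATCC on either strand, which 12.4% and 6.25% of windows hold. The GC content was 61.6% for Parp1 and 58.4% for Casp6, against a median of 52.4% over all windows.

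Parp1, the DNA damage sensor, was the most abundant of the 8 genes (gene ENSMUSG00000026496.11, chromosome 1, 180568924 to 180601254 in the GRCm38 annotation, plus strand). It had 441 counts in Cnga3-/-, 489 in Pde6ccpfl1 and 673 in wildtype. As a level this was 1314 CPM (1195 to 1443) in Cnga3-/-, 1658 CPM (1514 to 1811) in Pde6ccpfl1 and 2464 CPM (2282 to 2658) in wildtype. The 3 intervals do not overlap, with wildtype highest and Cnga3-/- lowest. Parp1 ranked 66th of all genes by counts in Cnga3-/-, 57th in Pde6ccpfl1 and 39th in wildtype. A count was found in 63 of 70 Cnga3-/- wells, 56 of 61 Pde6ccpfl1 wells and 51 of 52 wildtype wells. The microRNA gene Mir6904 lies inside Parp1 and shares 7 of its 5293 exonic bases.

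Casp6, an executioner caspase, came next (ENSMUSG00000027997.9, chromosome 3, 129901425 to 129914103, plus strand), and no other annotated gene overlaps it. Its counts were 399 in Cnga3-/-, 220 in Pde6ccpfl1 and 563 in wildtype. These are 1189 CPM (1075 to 1312) in Cnga3-/-, 746 CPM (650 to 851) in Pde6ccpfl1 and 2062 CPM (1895 to 2239) in wildtype. Wildtype was again highest, but here Pde6ccpfl1 and not Cnga3-/- was lowest. Wells with a count numbered 57 of 70, 41 of 61 and 51 of 52 in the same order.

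The initiator caspases were sparse. Casp9 (chromosome 4, 141793612 to 141815976, plus strand), which acts below the mitochondria, had 15 counts in Cnga3-/-, 14 in Pde6ccpfl1 and 9 in wildtype. Per kilobase of exon this was 8.60 CPM (4.82 to 14.2), 9.13 CPM (4.99 to 15.3) and 6.34 CPM (2.90 to 12.0). The olfactory receptor genes stood at 3.60, 4.14 and 4.47 CPM per kilobase, so the Casp9 interval lay above them in both mutants and included them in wildtype. Position F08 held 1 wildtype count and was the highest well in both mutants, with 4 Cnga3-/- and 2 Pde6ccpfl1 counts. Without that well Casp9 stood at 6.37 CPM per kilobase (3.18 to 11.4) in Cnga3-/- and 7.89 (4.08 to 13.8) in Pde6ccpfl1, and the intervals included the olfactory receptor level in these libraries too. Casp8 (chromosome 1, 58795374 to 58847503, plus strand), which acts below death receptors, had 2, 3 and 2 counts. The 3 counts of the Pde6ccpfl1 library came from a single well.

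Calpain, AIF and BAX transcripts were at or under 4 counts in every library. Capn1 (chromosome 19, 5988545 to 6015897, minus strand) had 2 counts in Cnga3-/-, 0 in Pde6ccpfl1 and 1 in wildtype. Capn2 (chromosome 1, 182467260 to 182517608, minus strand) had 2, 4 and 3 counts, and Aifm1 (chromosome X, 48474944 to 48513563, minus strand) had 2, 3 and 1. Position D11 held 1 of the Capn2 counts in each plate. Bax (chromosome 7, 45461697 to 45466898, minus strand) had 0 counts in each library, also in the wells that were left out. A count of 0 allows up to 3 counts, which for Bax is 8.94 CPM in Cnga3-/-, 10.2 CPM in Pde6ccpfl1 and 10.99 CPM in wildtype. These limits lie above the olfactory receptor level per kilobase (5.67, 6.45 and 6.97 CPM per kilobase for Bax), so expression of Bax at that level was not detectable at this depth. Overlapping annotation covers 27.1% of the exonic bases of Capn2 (Gm37885, opposite strand), 11.8% of Capn1 (Gm10814, opposite strand) and 12.2% of Bax (Gm45808, same strand). How reads in such bases were counted is not given in the sources used here.

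Ordered by level per kilobase of exon, Parp1 and Casp6 stood far above the other 6 genes in every library. Parp1 stood at 248 CPM per kilobase (226 to 273) in Cnga3-/-, 313 (286 to 342) in Pde6ccpfl1 and 466 (431 to 502) in wildtype. Casp6 stood at 213 (193 to 235), 134 (116 to 152) and 369 (339 to 401) in the same order, so the order Parp1 over Casp6 was within counting error in Cnga3-/- alone. Without the highest well of each gene, Parp1 stood at 182 (162 to 203) and Casp6 at 115 (100 to 132) in Cnga3-/-, with intervals apart. Casp9 had the third highest value in each library, with an interval that overlapped that of Casp8. Casp8, Capn1, Capn2 and Aifm1 ran from 0 to 3.52 CPM per kilobase with overlapping intervals, and their order is not resolved. Relative to the olfactory receptor genes per kilobase, Parp1 was 69.0, 75.6 and 104 times higher in Cnga3-/-, Pde6ccpfl1 and wildtype, and Casp6 59.2, 32.2 and 82.5 times. The 8 genes together took 0.257% of counts in Cnga3-/-, 0.248% in Pde6ccpfl1 and 0.458% in wildtype, and Parp1 with Casp6 made up 97.3%, 96.7% and 98.7% of that.

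**Figure D1:**
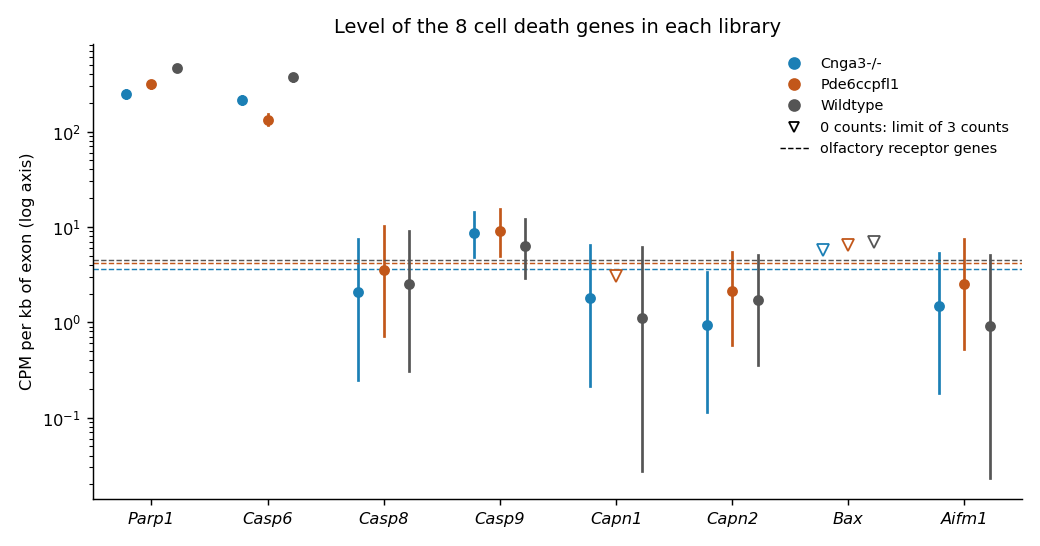
Level of each of the 8 genes (x axis) as CPM per kilobase of exon (log y axis) in the Cnga3-/-, Pde6ccpfl1 and wildtype libraries. Points are the summed kept wells, bars the 95% counting interval, open triangles the limit of 3 counts where a gene had 0 counts, and dashed lines the olfactory receptor genes; Parp1 and Casp6 lie at 134 to 466 CPM per kilobase and the other 6 genes at 9.13 or less.

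Counts of Parp1 and Casp6 were not spread evenly over wells, and the same plate position held the most in every plate. For Parp1 this was position C09, with 121 counts in Cnga3-/-, 133 in Pde6ccpfl1 and 149 in wildtype. That is 27.4%, 27.2% and 22.1% of all Parp1 counts of each library, in a well of only 2455, 2371 and 2594 counts in all. The next highest well held 22, 19 and 25 Parp1 counts. For Casp6 the position was A06, with 188 counts in Cnga3-/-, 82 in Pde6ccpfl1 and 173 in wildtype, or 47.1%, 37.3% and 30.7% of the library's Casp6 counts. The next highest wells held 16, 20 and 24. The plates are labelled as separate libraries of different lines. Whether well barcodes or primers have a part in the shared positions was not tested, and this limits all values per well and per position given here; 43 positions held a kept well in all 3 plates. Ratios of Parp1 and Casp6 are given below with and without these wells.

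**Figure D2:**
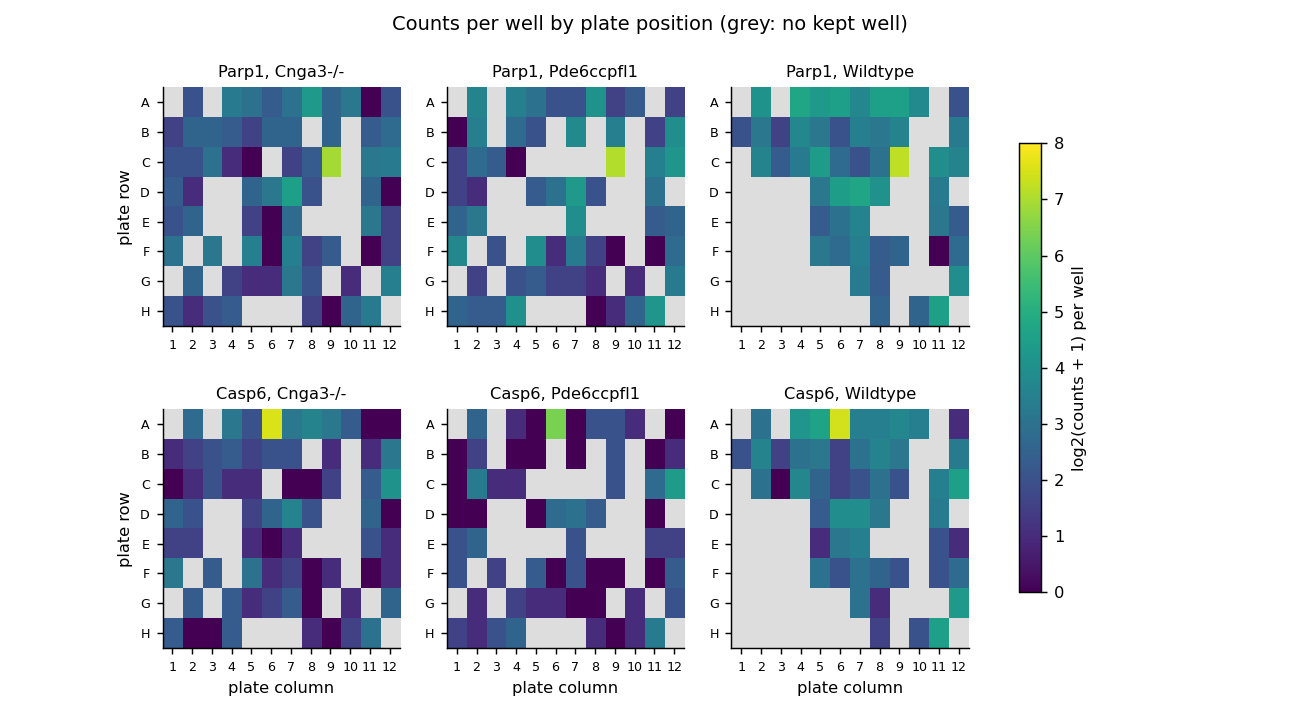
Counts of Parp1 (top) and Casp6 (bottom) in each well of the Cnga3-/-, Pde6ccpfl1 and wildtype plates, as log2(counts + 1) by plate row (y axis) and plate column (x axis), with grey for positions without a kept well. The brightest well is C09 for Parp1 and A06 for Casp6 in all 3 plates.

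Away from these positions, Parp1 and Casp6 still differed between the libraries. Among the other wells Parp1 ran from 0 to 22 counts with a median of 4 in Cnga3-/-, from 0 to 19 with a median of 4 in Pde6ccpfl1, and from 0 to 25 with a median of 9 in wildtype. Casp6 ran from 0 to 16 with a median of 2 in Cnga3-/-, from 0 to 20 with a median of 1 in Pde6ccpfl1 and from 0 to 24 with a median of 7 in wildtype. The ranges overlap, and the wildtype medians are the highest. As a level, Parp1 without C09 was 961 CPM in Cnga3-/-, 1217 CPM in Pde6ccpfl1 and 1937 CPM in wildtype. Casp6 without A06 was 644 CPM, 474 CPM and 1483 CPM in the same order.

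Parp1 and Casp6 levels were also read in shallower and deeper wells. Split at 4284 counts, the median over all kept wells, and without C09, Parp1 stood at 937 CPM in shallower and 971 CPM in deeper Cnga3-/- wells. In Pde6ccpfl1 the values were 1100 and 1256 CPM, and in wildtype 1930 and 1939 CPM. Casp6 without A06 stood at 492 and 711 CPM in Cnga3-/-, 387 and 502 CPM in Pde6ccpfl1 and 1379 and 1506 CPM in wildtype, lower in the shallower wells of each library but with overlapping intervals. In either depth class wildtype was above both mutants for both genes.

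With every well thinned to 1400 counts, Parp1 was found in 46 of 65 Cnga3-/- wells (70.8%, exact binomial interval 58.2 to 81.4), 42 of 54 Pde6ccpfl1 wells (77.8%, 64.4 to 88.0) and 47 of 48 wildtype wells (97.9%, 88.9 to 99.9). Without thinning the shares were 90.0%, 91.8% and 98.1%. Casp6 was found in 56.9% (44.0 to 69.2), 48.1% (34.3 to 62.2) and 83.3% (69.8 to 92.5) of thinned wells, against 81.4%, 67.2% and 98.1% without thinning. These intervals take the wells of 1 library as independent, and wells are not replicates of a genotype. The other 6 genes reached 7.41% of thinned wells at most, for Casp9 in Pde6ccpfl1. Without thinning, both Parp1 and Casp6 were counted in 55 Cnga3-/- wells, 39 Pde6ccpfl1 wells and 50 wildtype wells. At least 1 of the other 6 genes was counted in 19, 19 and 11 wells.

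Parp1 and Casp6 were lower in the Cnga3-/- library than in wildtype. Parp1 had a log2 ratio of -0.91 (-1.08 to -0.73), which is 1.87-fold lower in Cnga3-/-. Casp6 had a log2 ratio of -0.79 (-0.98 to -0.61), 1.73-fold lower. Casp9, with 15 against 9 counts, had a log2 ratio of 0.44 (-0.85 to 1.81), which includes no difference. The 8 genes summed to 863 against 1252 counts, a log2 ratio of -0.83 (-0.96 to -0.71). Without Parp1 and Casp6 the sum was 23 against 16 counts and the log2 ratio 0.23 (-0.76 to 1.24), so the lower sum belongs to those genes.

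Parp1 and Casp6 alone reached the filter for comparison, which asked for 50 or more counts in the pair of libraries and for detection in 20% or more of the wells of either. Neither lay 2-fold apart, while 11.7% of the 1723 compared genes were at least 2-fold lower in Cnga3-/- and 11.2% at least 2-fold higher. The median log2 ratio of compared genes was -0.32, and 14.6% of them had a lower ratio than Parp1 and 19.4% a lower one than Casp6. With median-of-ratios scaling the median became -0.18, and 219 genes were higher and 140 lower in place of 193 and 202. Under that scaling the log2 ratio was -0.77 for Parp1 and -0.65 for Casp6. Without position C09 Parp1 passed the 2-fold line at -1.01 (-1.22 to -0.81), and it stood at -0.99 without both C09 and A06. Likewise, without A06 Casp6 passed it at -1.20 (-1.45 to -0.96). Without the 5 deepest wells of each library the log2 ratio of Casp6 was -0.20 (-0.42 to 0.02); that step drops A06 from wildtype and keeps it in Cnga3-/-.

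Against wildtype, Casp6 and Parp1 were lower in Pde6ccpfl1 as well; this comparison and that of Cnga3-/- use a single wildtype library. Casp6 was 2.76-fold lower in Pde6ccpfl1, a log2 ratio of -1.47 (-1.70 to -1.24). Parp1 was 1.49-fold lower, a log2 ratio of -0.57 (-0.74 to -0.40). The log2 ratio of Casp9, from 14 against 9 counts, was 0.53 (-0.78 to 1.92), and that of Capn2, from 4 against 3 counts, was 0.30 (-2.26 to 3.07). For the sum of the 8 genes, 733 against 1252 counts, it was -0.88 (-1.02 to -0.75). Without Parp1 and Casp6 the sum was 24 against 16 counts, and the log2 ratio 0.47 (-0.50 to 1.48).

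Casp6 was thus the 1 of 2 compared members at least 2-fold apart, where 15.2% of 1600 compared genes were at least 2-fold lower and 10.2% at least 2-fold higher. Of the compared genes, 8.38% had a lower ratio than Casp6 and 30.3% a lower one than Parp1, around a median of -0.16. Without A06 the log2 ratio of Casp6 was -1.65, and without C09 that of Parp1 was -0.67. Casp6 came under the 2-fold line at -0.82 without the 5 deepest wells, which drops A06 from wildtype alone, and at -0.90 in thinned wells. Parp1 passed it at -1.03 with the stricter filter on wells, which drops C09 from Pde6ccpfl1 alone.

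Set against each other, the mutants differed in opposite ways for the 2 genes. Parp1 had 489 counts in Pde6ccpfl1 against 441 in Cnga3-/-, a log2 ratio of 0.33 (0.15 to 0.52), and Casp6 had 220 against 399, a log2 ratio of -0.67 (-0.92 to -0.43). Neither was 2-fold apart, where 6.44% of 1693 compared genes were at least 2-fold higher in Pde6ccpfl1 and 9.33% at least 2-fold lower. Casp9 had 14 counts in Pde6ccpfl1 and 15 in Cnga3-/-, for a log2 ratio of 0.09 (-1.07 to 1.24). Without C09 the Parp1 ratio was 0.34 (0.12 to 0.56), and without A06 that of Casp6 was -0.44 (-0.76 to -0.13). The Casp6 ratio turned to 0.09 in thinned wells and that of Parp1 to -0.15 under the stricter filter on wells. The sum of all 8 had a log2 ratio of -0.05 (-0.19 to 0.09), but -0.36 (-0.51 to -0.20) under the stricter filter on wells and 0.27 (0.01 to 0.54) in thinned wells, so its direction is not resolved.

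**Figure D3:**
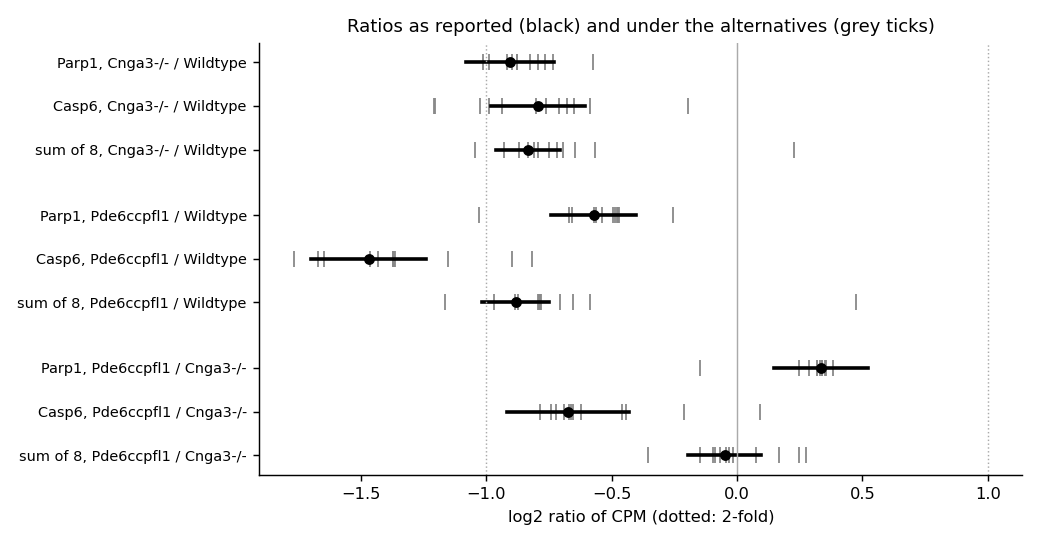
Log2 ratios of CPM (x axis) for Parp1, Casp6 and the sum of the 8 genes in the 3 comparisons. Black points and bars are the values and 95% counting intervals given in the text, grey ticks the alternatives; all 12 alternatives are below 0 for Parp1 and for Casp6 in both comparisons with wildtype.

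Wells at the same plate position were then set beside each other over the 43 positions kept in all plates. Parp1 had a lower CPM in Cnga3-/- at 40 positions, a higher one at 2 and an equal one at 1. In Pde6ccpfl1 Parp1 was lower than in wildtype at 35 positions and higher at 7. Casp6 was lower than in wildtype at 39 of 43 positions in Cnga3-/- and likewise at 39 in Pde6ccpfl1. Between the mutants, Parp1 was higher in Pde6ccpfl1 at 28 positions and lower at 14, and Casp6 higher at 13 and lower at 26. Wells of a plate are not replicates of a genotype, so these are counts and not tests. Over these positions the log2 ratio to wildtype was -0.73 for Parp1 and -0.59 for Casp6 in Cnga3-/-, and -0.49 and -1.37 in Pde6ccpfl1. The median over all compared genes was also below 0 there, at -0.25 for 1368 genes in Cnga3-/- and -0.10 for 1329 in Pde6ccpfl1.

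Across positions, Parp1 levels of the mutant and wildtype plates moved together, but weakly by rank for Pde6ccpfl1, and less so without C09. The Pearson correlation of log2(CPM + 100) between Cnga3-/- and wildtype wells was 0.81 over 43 positions and 0.64 over the 42 without C09. Between Pde6ccpfl1 and wildtype it was 0.63 and 0.41. The rank (Spearman) correlation of Parp1 was 0.50 with and 0.46 without C09 for Cnga3-/-, and 0.24 and 0.19 for Pde6ccpfl1. For Casp6 the Pearson values were 0.41 for Cnga3-/- and 0.26 for Pde6ccpfl1 with A06, and 0.09 and -0.08 without it. The points share plate position, and well depth enters both axes.

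**Figure D4:**
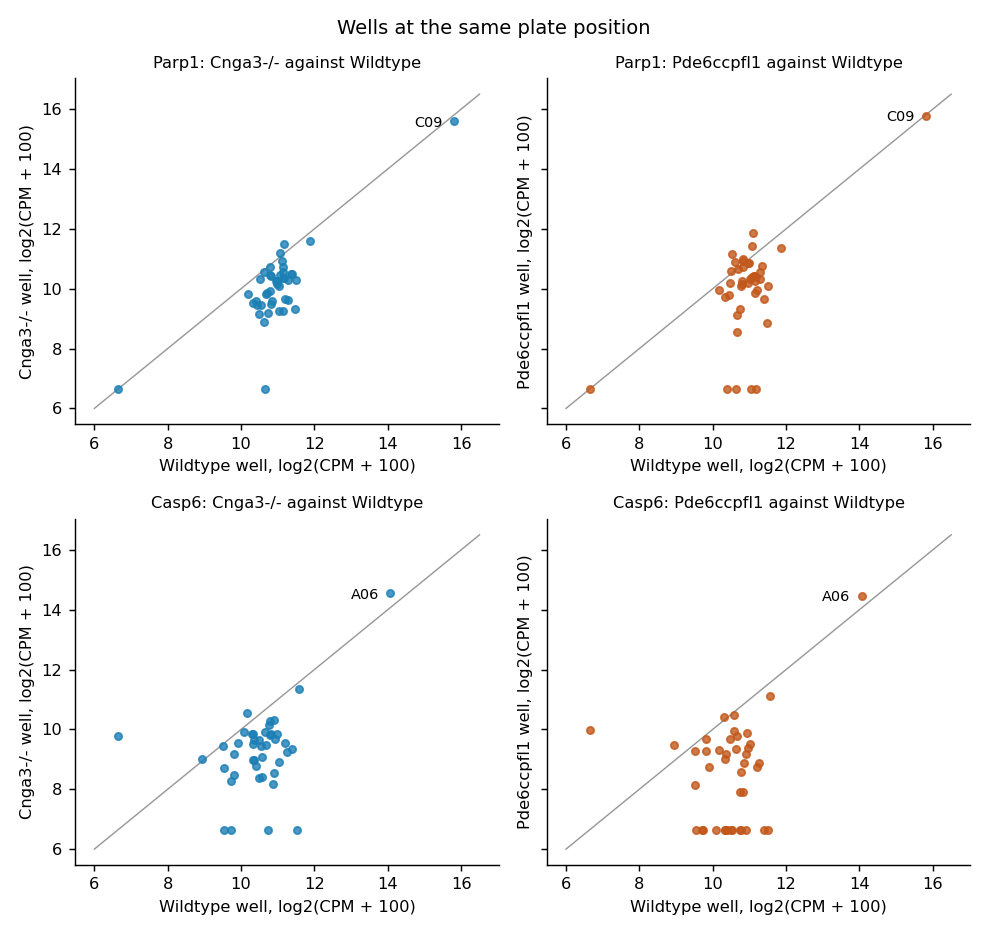
Level of Parp1 (top) and Casp6 (bottom) as log2(CPM + 100) in Cnga3-/- wells (left, y axis) and Pde6ccpfl1 wells (right, y axis) against the wildtype well at the same plate position (x axis), over 43 positions, with the line of equality. Most points lie under the line, 40 of 43 for Parp1 in Cnga3-/-, and C09 and A06 stand far from the rest near the line.

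Summed markers of several retinal cell types also differed between the libraries in which Parp1 and Casp6 differed. Summed cone markers were at 775, 749 and 198 CPM in Cnga3-/-, Pde6ccpfl1 and wildtype. Of 12 rod markers all had counts in each library, with sums of 778, 671 and 406 CPM. The 7 Muller glia markers had 86.4, 61.0 and 154 CPM, with Aqp4 and Dkk3 at 0 in Pde6ccpfl1 and Aqp4 at 0 in wildtype. The 5 horizontal cell markers had 280, 325 and 381 CPM, with Onecut1 at 0 in Cnga3-/- and wildtype, and the 5 markers of endothelium and pericytes 113, 115 and 176 CPM, with Pecam1 at 0 in Pde6ccpfl1. The 3 astrocyte markers had 77.5, 115 and 69.6 CPM, lowest in wildtype. Like Parp1 and Casp6, the Muller glia, horizontal cell and endothelium sums were highest in wildtype. Their intervals overlapped those of the mutants, except for Muller glia against Pde6ccpfl1 (111 to 208 against 36.2 to 96.4 CPM). Bipolar (143, 132 and 98.9 CPM), ganglion cell, microglia and pigment epithelium sums were lowest in wildtype, with overlapping intervals. Amacrine sums were 53.7, 57.6 and 54.9 CPM. The part of RNA of other cell types in the result was not tested. For the cone markers a value within libraries can be given: without C09, Parp1 stood at 952 CPM in Cnga3-/- wells with a cone marker count and 1057 CPM in those with none. The values were 1212 and 1335 CPM in Pde6ccpfl1, where 4 wells had none, and 1991 and 1885 CPM in wildtype. Casp6 without A06 stood at 662 and 458 CPM in Cnga3-/-, 470 and 572 CPM in Pde6ccpfl1 and 1369 and 1584 CPM in wildtype. Wells with a cone marker count numbered 60 of 70 in Cnga3-/-, 57 of 61 in Pde6ccpfl1 and 20 of 52 in wildtype. Their median depth was 4305, 3939 and 6228.5 counts, so these sets of wells are unlike in depth. The intervals of wildtype and both mutants lay apart in wells with a cone marker count. In wells with none they lay apart except for Parp1 in Pde6ccpfl1, at 1335 CPM (730 to 2240) against 1885 CPM (1662 to 2129) in wildtype. With C09 and A06 kept where they fell, wells with a cone marker count gave Parp1 a log2 ratio to wildtype of -0.57 in Cnga3-/- and -0.25 in Pde6ccpfl1, and Casp6 one of -1.03 and -1.77; C09 had no cone marker count in wildtype.

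The wider death machinery was read from 6 lists of 98 further genes. Of these, 88 had under 50 counts over the 3 libraries together and 5 (Casp14, Endog, Capn12, Tnf and Gsdmd) had none. In Cnga3-/- against wildtype 8 of the 98 were compared, of which 2 were lower by 2-fold or more and 0 higher by as much, with a median log2 ratio of -0.34 beside -0.32 for all 1723 compared genes, of which 11.7% were lower and 11.2% higher by that much. In Pde6ccpfl1 against wildtype the numbers were again 8, 2 and 0, with a median of -0.30 beside -0.16, where 15.2% of all compared genes were lower and 10.2% higher. The 2 genes were Birc6 and Parg in both comparisons, which share the wildtype library. Between the mutants 7 were compared and 0 lay 2-fold apart in either direction, where 6.44% of all compared genes were higher in Pde6ccpfl1 and 9.33% lower.

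Birc6, a giant inhibitor of apoptosis that restrains caspases, was the leading gene among the caspases and their regulators. It had 148 counts in Cnga3-/-, 90 in Pde6ccpfl1 and 266 in wildtype, with a log2 ratio to wildtype of -1.14 (-1.44 to -0.85) and -1.67 (-2.04 to -1.32). Its highest well was A09 in each plate, with 77, 37 and 113 counts, and without it the log2 ratios were -1.41 and -1.66. The summed list of 21 genes stood at -1.01 (-1.28 to -0.75) for Cnga3-/- and at -1.42 (-1.73 to -1.12) for Pde6ccpfl1 as log2 ratios to wildtype. Birc6 holds most of those counts.

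Parg, the enzyme that removes the poly(ADP-ribose) chains that PARP1 builds, was lower in both mutants. It had 29 counts in Cnga3-/-, 33 in Pde6ccpfl1 and 77 in wildtype, with log2 ratios to wildtype of -1.71 (-2.38 to -1.07) and -1.33 (-1.97 to -0.73). Its highest wildtype well, C05, held 26 counts, and without the highest well of each library the log2 ratios were -1.81 and -1.33. Parp4, a PARP family member found in vault particles, had 27, 27 and 34 counts and log2 ratios of -0.63 (-1.41 to 0.14) and -0.44 (-1.23 to 0.33). Without its highest well, E11 in each plate, the Cnga3-/- ratio of Parp4 was -1.30 (-2.49 to -0.20). That of Pde6ccpfl1 was -0.26 (-1.21 to 0.69). The list of 17 PARP and poly(ADP-ribose) genes summed to log2 ratios of -0.81 (-1.13 to -0.50) and -0.69 (-1.01 to -0.37).

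Of the BCL2 family, the p53 target Pmaip1 had 61 counts in Cnga3-/-, 47 in Pde6ccpfl1 and 71 in wildtype. Its log2 ratio to wildtype was -0.52 (-1.03 to -0.00) in Cnga3-/- and -0.71 (-1.27 to -0.15) in Pde6ccpfl1. Without its highest well, A08 in each plate, these were -0.50 (-1.33 to 0.32) and -0.29 (-1.11 to 0.53). Bbc3, another p53 target, had 32, 30 and 29 counts, and the pore former Bak1, the partner of Bax, had 17, 17 and 19. Their intervals against wildtype included 0 in both mutants. The 17 genes of the family summed to 181, 147 and 153 counts, log2 ratios of -0.05 (-0.37 to 0.27) and -0.17 (-0.51 to 0.17).

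Capn3, a calpain best known from muscle, had far more counts than Capn1 or Capn2, with 67 in Cnga3-/-, 55 in Pde6ccpfl1 and 54 in wildtype. Per kilobase of exon it stood at 39.8, 37.1 and 39.4 CPM, and position B01 held 42, 28 and 21 of its counts. Its log2 ratios to wildtype were 0.01 (-0.52 to 0.56) and -0.08 (-0.65 to 0.48). Without B01 the values were -0.70 (-1.51 to 0.10) for Cnga3-/- and -0.40 (-1.19 to 0.38) for Pde6ccpfl1. The pore-forming Gsdme had 35, 29 and 23 counts, and the DNA damage kinases Atm and Atr had 42, 26 and 27 and 20, 12 and 18. Intervals against wildtype included 0 for each of these 3 genes in both mutants. The sums of the calpain list, the list of death receptors, necroptosis and pyroptosis, and the DNA damage list also had intervals that included 0 in both comparisons with wildtype, with log2 ratios between -0.30 and 0.36.

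**Figure D5:**
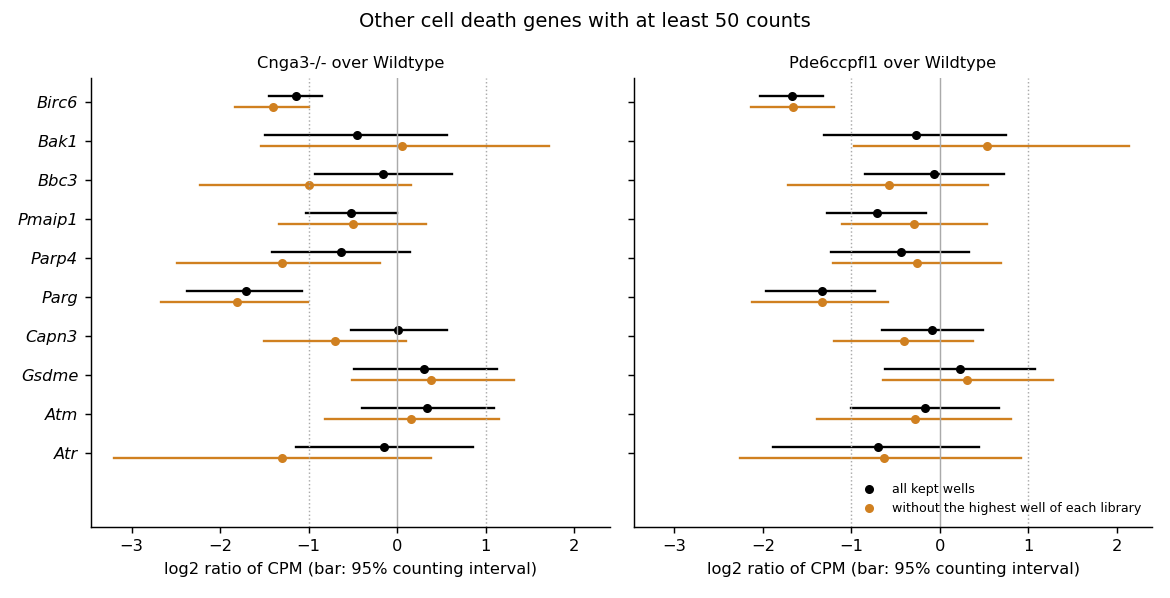
Log2 ratio of CPM (x axis) of the 10 further cell death genes with at least 50 counts, Cnga3-/- over wildtype (left) and Pde6ccpfl1 over wildtype (right), with 95% counting intervals. Black points use all kept wells and orange points leave out the highest well of each gene in each library; Birc6 and Parg lie at -1.14 or lower in both panels and on both measures.

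Genes were ranked by their correlation with Parp1 and with Casp6 over wells. The measure was the mean over the libraries of the Pearson correlation of log2(CPM + 100). It covered 212 genes counted in at least 50% of the wells of each library. Mitochondrially encoded and predicted genes and the 8 genes themselves were left out. For Parp1 the first 3 were Sgta (mean r = 0.43), Rpn2 (0.41) and Notch4 (0.31), over 70, 61 and 52 wells. For Casp6 they were Fermt1 (0.41), Ttll8 (0.35) and Caln1 (0.35). The highest well of Sgta, Rpn2 and Notch4 was C09 in each plate and that of Fermt1, Ttll8 and Caln1 was A06 in each plate. Parp1 and Casp6 themselves had a correlation of 0.32 in Cnga3-/-, 0.25 in Pde6ccpfl1 and -0.04 in wildtype. These correlations describe sparse counts of wells that share a plate. They include C09 and A06, and how far they rest on those wells was not tested.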

How the data were processed

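The authors deposited raw counts per gene and well. Per the submitters' processing notes, featureCounts and the build GRCh38 were named; GRCh38 is a human assembly while the table lists mouse symbols, so gene positions and exon lengths were taken from the GENCODE M21 annotation of GRCm38. The aligner, the strand setting and the handling of molecular identifiers are not given in the sources used here, so counts may not be independent molecules. Every column was matched to its library by name, and 0 columns were left unmapped.

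Counts of kept wells were summed per library and scaled to CPM. No doublet caller was run, since wells were sorted to hold single cells. Intervals are exact: conditional on the summed count of the pair for a log2 ratio of CPM, Poisson for CPM and Clopper-Pearson for shares of wells, all at 95%. With 1 library per genotype no p-value was computed, and a fold of 2 describes size. No fold is given where both libraries had 3 counts or fewer. The 8 genes, the lists and the rules for named genes (list members with at least 50 counts, and the 3 genes most alike) were chosen with earlier results of these data known. Results in shared positions and without positions C09 and A06 were added after the wells were seen. Analyses used Python 3.11.15, scipy 1.17.1 and TMM factors from edgeR 4.0.16. The ratio and its interval were run on simulated library totals drawn from the Poisson model that the interval assumes. Those totals held no wells and no shared positions, so the run cannot show how the intervals fare on these data.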

Additional observations from a re-analysis of the deposited data

Results flagged for a closer look

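The 25 wells that failed the filter on wells also held counts of these genes. Parp1 had 23 counts there, 3 in Cnga3-/-, 11 in Pde6ccpfl1 and 9 in wildtype, and Casp6 had 17, which were 1, 5 and 11 in the same order. Both are above the 3 counts that a count of 0 allows, and these wells entered the comparisons only in the alternative with no filter on wells.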

How the results depend on the processing

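For the summed counts of the 8 genes, Cnga3-/- over wildtype had a log2 ratio of -0.57 without the 5 deepest wells of each library, -0.69 with median-of-ratios scaling, -0.65 in shared positions and -1.04 without C09 and A06. That of Pde6ccpfl1 over wildtype was -1.16 with the stricter filter (1000 genes, 15% mitochondrial counts), -0.59 without the 5 deepest wells, -0.71 as a mean CPM over wells and -0.66 in thinned wells. That of Pde6ccpfl1 over Cnga3-/- was -0.36, 0.17 and 0.27 with the stricter filter, the mean CPM and thinning. Without Parp1 and Casp6 the 3 ratios were 0.23, 0.47 and 0.25. Of the 2 genes compared (Parp1 and Casp6), 1 was at least 2-fold apart in Cnga3-/- over wildtype in wells with a cone marker. Without C09 and A06 it was also 1, against 0 as reported. All compared genes at least 2-fold higher and lower numbered 239 and 270 of 1215 in the first setting. In the second they numbered 189 and 202 of 1646, against 193 and 202 of 1723 as reported. In Pde6ccpfl1 over wildtype 2 of the 2 passed 2-fold with the stricter filter. Without the 5 deepest wells and in thinned wells 0 did so, against 1 as reported. Among all compared genes 133 were higher and 227 lower of 1439 with the stricter filter, against 163 and 244 of 1600 as reported. Without the deepest wells these were 130 and 183 of 1247, and in thinned wells 45 and 44 of 330. The stricter filter removes C09 from Pde6ccpfl1 alone, and the filter on cone markers removes it from wildtype alone. Leaving out the deepest wells removes A06 from wildtype alone. In wells with a cone marker, the gene past 2-fold in Cnga3-/- over wildtype was Casp6, at -1.03. There A06 stayed in every library, and Parp1 stood at -0.57. The cause of these moves was not tested for any setting. The ratio to wildtype was below 0 under all 12 alternatives for Parp1 (-1.01 to -0.57 in Cnga3-/-, -1.03 to -0.25 in Pde6ccpfl1) and for Casp6 (-1.21 to -0.20 and -1.77 to -0.82). Numbers of compared genes at least 2-fold apart moved by over 1.5 times with filters of 10 and 200 counts, with thinning and, against wildtype, in shared positions. The number of genes compared changed as well. In Cnga3-/- over wildtype the 2 filters gave 1248 higher and 1166 lower of 7739 compared genes, and 35 and 35 of 330. Thinning gave 43 and 41 of 363 and shared positions 78 and 88 of 1368, in place of 193 and 202 of 1723. In Pde6ccpfl1 over wildtype the 2 filters gave 1130 and 1238 of 7289, and 35 and 39 of 327. Thinning gave 45 and 44 of 330 and shared positions 80 and 160 of 1329, in place of 163 and 244 of 1600. In Pde6ccpfl1 over Cnga3-/- the 2 filters gave 795 and 1111 of 7850, and 28 and 21 of 337. Thinning gave 30 and 31 of 362, in place of 109 and 158 of 1693. No paired analysis was possible because each group has 1 library. Counts of 4 or fewer for Casp8, Capn1, Capn2, Aifm1 and Bax allow no statement on a difference at this depth.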

Other observations

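The tie between gene and plate position was not particular to the death genes. Of 97 genes with at least 200 counts in each library, 84 (86.6%) had their highest well, among the 43 shared positions, at the same position in all 3 plates. The median share of such a gene's counts in its highest well was 32.9% in Cnga3-/-, 28.6% in Pde6ccpfl1 and 25.5% in wildtype. Over 233 genes counted in at least 50% of wells of each library, wells at the same position had a median correlation of centred log2(CPM + 100) of 0.45 for Cnga3-/- with wildtype, 0.37 for Pde6ccpfl1 with wildtype and 0.45 for Pde6ccpfl1 with Cnga3-/-. Wells at different positions had -0.01 in each pair. The most alike wildtype well had the same position for 36 of 43 Cnga3-/- wells and 34 of 43 Pde6ccpfl1 wells. Of the 10 further death genes with at least 50 counts, 9 had the same highest position in every plate, here over all kept wells. The exception was Parg, whose highest wildtype well, C05, is a position without a kept Pde6ccpfl1 well. Whether well barcodes or primers have a part in this pattern was not tested.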
